A study of Homo sapiens with 2 samples.

Results

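The ligands of the EGF family and the ERBB receptors they bind were read on arrays of Panc1, an established line of human pancreatic ductal adenocarcinoma cells. Of 10 genes in this group (EREG, AREG, HBEGF, TGFA, BTC, EGF, NRG1, EGFR, ERBB2 and ERBB3), 9 had at least 1 probe set that the platform annotation assigns to that symbol alone, and these 9 genes held 35 of 41097 such probe sets. The annotation used here gives no probe set for AREG, which was therefore not analysed here. A probe set is a group of short array probes that reads 1 transcript, mostly near its 3′ end. The Panc1/syk-wt population had been stably transfected with wild-type syk, the non-receptor tyrosine kinase SYK, and its control, Panc1/mock, carried the vector alone. Both were kept under hygromycin as stable populations and harvested from subconfluent culture with no other treatment, and the series title calls the mock cells drug-resistant. The labels give neither the promoter that drives syk nor the number of clones behind either population. Each population had 1 array, so values below have no replicate error, and population, RNA preparation and array cannot be told apart.

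ERBB receptors are tyrosine kinases of the cell surface. Their ligands are made as membrane-anchored precursors, are released by proteases, and bring receptors together in pairs that phosphorylate each other and switch on the RAS to ERK and PI3K pathways. Epiregulin (EREG), HB-EGF (HBEGF) and betacellulin (BTC) bind EGFR and ERBB4, amphiregulin (AREG), TGF-alpha (TGFA) and EGF bind EGFR, and neuregulin 1 (NRG1) binds ERBB3 and ERBB4. ERBB2 has no known ligand of its own and acts as a partner, and ERBB3 has little kinase activity. EGFR and its ligands are known as drivers of growth in pancreatic ductal carcinoma.

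Levels are log2 intensities after RMA (robust multi-array average). The highest value among 27 probe sets against bacterial transcripts, 4.77, served as a floor for dim signal. Both arrays had close medians (4.24 on syk-wt and 4.26 on mock), and the 18 hybridisation spikes differed by a median of 0.01. SYK itself, read by 4 probe sets, gave no clear check of the labels. Its brightest probe set read 4.73 on the syk-wt array and 4.27 on the mock array, and both values lay below the floor. The floor rests on 1 control, and both values were above the next highest, 3.61. The syk-wt value was also above the highest control on its own array, 4.44. The remaining SYK probe sets, also below the floor on both arrays, were lower on syk-wt, by differences of -0.27, -0.07 and -0.09. Directions below therefore rest on the labels. Of 10 markers of pancreatic ductal epithelium, 8 were above the floor on the syk-wt array and 9 on the mock array. SOX9, KRT8 and EPCAM were above it on both, CFTR was below it on both, and CDH1 was below it on syk-wt alone. Markers of acinar, endocrine, white blood and endothelial cells (3, 4, 4 and 4 measured) were all at or below the floor on both arrays, and 1 of 6 fibroblast markers, COL1A1, was above it.

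Epiregulin was the one member past 2-fold between the arrays. EREG probe set 205767_at read 8.89 on the syk-wt array, against 6.83 on the mock array, a log2 difference of 2.06 or 4.18-fold higher. Both values stood well above the floor. The second EREG probe set, 1569583_at, read 4.63 on syk-wt and 4.11 on mock, a difference of 0.52 in the same direction with both values at or below the floor, so it gives no fold. That limit rests on the highest bacterial control alone, since the next highest reached 3.61, below both values. The EREG fold thus rests on 1 probe set. Counts use probe sets whose mean over both arrays reached 4.25, the 50th percentile of all probe sets. Of 35 member probe sets, 18 passed, and of these 1 was at least 2-fold higher and 0 were at least 2-fold lower on the syk-wt array. Over all 23066 named probe sets past the filter, 3.33% passed 2-fold upward on syk-wt and 3.48% downward, so 1 of 18 is near the background as a share. An absolute difference as large as that of 205767_at occurred in 0.936% of those probe sets. This share is no probability, since 205767_at is the widest of the 18 and members were chosen with earlier results known. An array of bulk RNA cannot tell more EREG RNA per cell from more cells that express it.

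Other values moved between the same arrays. Of the 9 ductal epithelial markers past the filter, 4 were at least 2-fold lower and 0 higher on syk-wt, with a median of -0.76. Over all genes past it, 3.65% were that much lower and 3.61% higher. The 4 were CLDN4 (-2.37), KRT19 (-1.45), MUC1 (-1.04) and CDH1, which read 3.47, below the floor, on syk-wt and 6.34 on mock. The 2 CLDN4 probe sets differed by -2.37 and 0.25. Of the 9 markers, 7 were below 0 and 2 above. Over all 10 markers the summed linear intensity was 13815 on syk-wt and 17183 on mock. Most of that sum is KRT18, the brightest marker at 13.1 on syk-wt and 13.3 on mock, which differed by -0.23. The 3′ minus 5′ difference of the ACTB control probe sets, a sign of RNA integrity, was 2.37 on syk-wt and 1.95 on mock, and that of GAPDH was 0.32 on syk-wt and 0.19 on mock. Their part in the EREG difference was not tested.

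**Figure D1:**
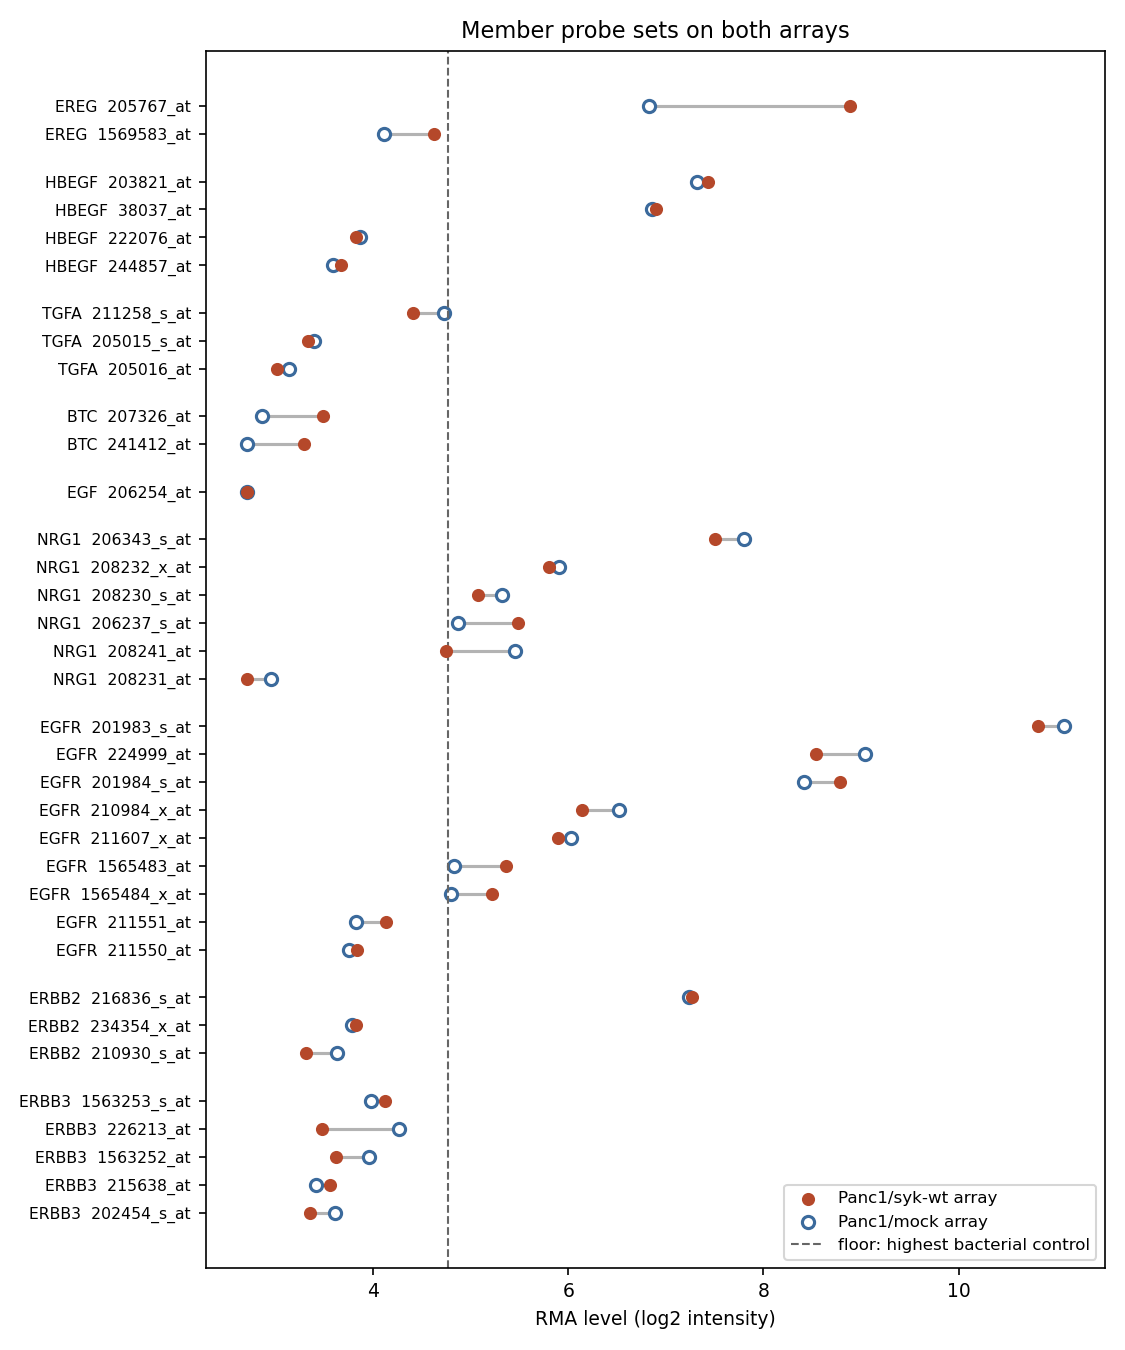
Level of each of the 35 member probe sets (RMA, log2 intensity) on the Panc1/syk-wt array (filled) and the Panc1/mock array (open), grouped by gene, with the floor of 4.77 as a dashed line. The EREG pair at 8.89 on syk-wt and 6.83 on mock is the widest, and 19 probe sets lie at or below the floor on both arrays.

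The sequences before the transcription starts of EREG and HBEGF are shown because these were the ligands of EGFR with a probe set above the floor on both arrays, and 1 of them differed while the other did not pass 2-fold. Each window runs from 250 bases before to 50 after the RefSeq start (GRCh38.p14). EREG lies at chr4:74364895-74365194 on the plus strand and HBEGF at chr5:140346554-140346853 on the minus strand. Capitals mark matches on either strand to 5 motifs searched for in both windows, the TATA box, the CCAAT box, the GC box, the AP-1 site and the CRE, whose letters follow the sequences.
EREG: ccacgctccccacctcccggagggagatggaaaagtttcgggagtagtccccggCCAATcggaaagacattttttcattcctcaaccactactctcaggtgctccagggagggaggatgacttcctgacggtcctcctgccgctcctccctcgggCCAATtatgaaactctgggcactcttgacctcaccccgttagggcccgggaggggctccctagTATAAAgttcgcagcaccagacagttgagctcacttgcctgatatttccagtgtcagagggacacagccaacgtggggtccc
HBEGF: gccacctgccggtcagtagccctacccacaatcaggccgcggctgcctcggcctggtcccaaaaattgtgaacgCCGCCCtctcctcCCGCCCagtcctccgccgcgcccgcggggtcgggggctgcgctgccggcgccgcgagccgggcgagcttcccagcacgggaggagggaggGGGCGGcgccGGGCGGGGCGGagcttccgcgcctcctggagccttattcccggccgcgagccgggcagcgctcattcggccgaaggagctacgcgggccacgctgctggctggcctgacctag
The EREG window held 1 TATA box, from -32 to -27 relative to the start, and 2 CCAAT boxes, and its G and C content was 57.7%. The HBEGF window held 5 GC boxes, of which a pair shares a base, with a G and C content of 75%, and had neither a TATA box nor a CCAAT box. The TATA box was searched as TATAAA, which 11.5% of 35116 promoter windows of the same length held on either strand. The CCAAT box was searched as CCAAT (34.6% of windows) and the GC box as its usual letters GGGCGG (45.0% of windows). The AP-1 site, TGANTCA, occurs in 7.71% of windows and was in neither sequence. Nor was the CRE, TGACGTCA, which occurs in 1.85%. These matches describe letters and show no binding.

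HBEGF, which encodes a heparin-binding ligand that is also the receptor for diphtheria toxin, had nearly equal values on both arrays. Probe set 203821_at read 7.43 on syk-wt and 7.32 on mock, a difference of 0.11. Probe set 38037_at read 6.90 on syk-wt and 6.85 on mock, a difference of 0.04. The remaining 2 HBEGF probe sets lay below the floor on both arrays and differed by -0.04 and 0.08. Probe sets past the filter that read the same gene had a pooled SD of 0.35 in their differences, taken over 6028 genes. The 4 HBEGF differences lay within it, though 2 of them came from probe sets under the filter. That SD holds probe behaviour and transcript variants but no variation between cultures.

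NRG1, the neuregulin, had 6 probe sets that did not move together. The brightest, 206343_s_at, read 7.51 on syk-wt and 7.80 on mock, a difference of -0.29. Probe set 206237_s_at went the other way, with 5.48 on syk-wt and 4.87 on mock (0.61), whereas 208241_at read 4.75, below the floor, on syk-wt and 5.46 on mock (-0.71). These were, after EREG, the member probe sets above the floor on at least 1 array with the widest differences, and both stayed under 2-fold. Probe sets 208232_x_at and 208230_s_at differed by -0.10 and -0.25, and 208231_at was below the floor on both arrays. NRG1 is known to make many transcript variants, and which variants each probe set reads was not analysed here. The SD of the difference over the 5 probe sets above the floor was 0.48, larger in size than their median of -0.25.

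The other 3 ligands with a probe set were dim. TGFA, a ligand of EGFR that pancreatic cancers often make, had 3 probe sets at or below the floor on both arrays, the brightest at 4.41 on syk-wt and 4.73 on mock. The BTC probe sets were also below the floor, 207326_at at 3.49 on syk-wt and 2.86 on mock and 241412_at at 3.29 on syk-wt and 2.71 on mock. Both BTC differences (0.63 and 0.58) were above 0, yet levels this dim give no fold. EGF, the ligand that names the family, read 2.71 on both arrays. Signal for BTC and EGF was thus not separable from that of the bacterial controls on these arrays. For TGFA this rests on the highest bacterial control alone, since the next highest reached 3.61, below both values of the brightest TGFA probe set.

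Among the receptors, EGFR had 9 probe sets, 7 of them above the floor on both arrays, and these 7 parted in sign. The brightest, 201983_s_at, read 10.8 on syk-wt and 11.1 on mock, a difference of -0.27. Probe set 224999_at read 8.54 on syk-wt and 9.04 on mock (-0.51), and 201984_s_at read 8.78 on syk-wt and 8.41 on mock (0.37). So even the EGFR probe sets with bright signal did not share a direction. The dimmer probe sets were mixed in the same way: 210984_x_at and 211607_x_at differed by -0.38 and -0.13, and 1565483_at and 1565484_x_at by 0.54 and 0.42. Probe sets whose names end in _x_at may bind other transcripts. Of the 7, 3 were higher and 4 lower on syk-wt, with a median of -0.13, a mean of 0.01 and an SD of 0.43, and none reached 2-fold. The direction for EGFR depends on how its probe sets are summarised, -0.27 by the brightest and 0.08 by the median over all 9.

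ERBB2 and ERBB3 gave little difference or little signal. ERBB2 probe set 216836_s_at read 7.27 on syk-wt and 7.24 on mock, a difference of 0.03, and its other 2 probe sets lay below the floor on both arrays. ERBB3, the neuregulin receptor, had 5 probe sets, and these were below the floor on both arrays. The widest ERBB3 difference was that of 226213_at (-0.78), with 3.48 on syk-wt and 4.26 on mock, and the other 4 ran from -0.34 to 0.15. Across all members, 17 probe sets were higher on syk-wt, 17 were lower and 1 was equal, and 23 of 35 differed by no more than the pooled SD. That SD comes from probe sets past the filter, and 17 of the 35 were under it. By the brightest probe set per gene, 6 of 9 genes passed the filter, and their median difference was -0.12, against 0.01 over all 12814 genes past it. Of these 6, 1 was at least 2-fold higher and 0 lower, beside 3.61% higher and 3.65% lower over all genes.

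**Figure D2:**
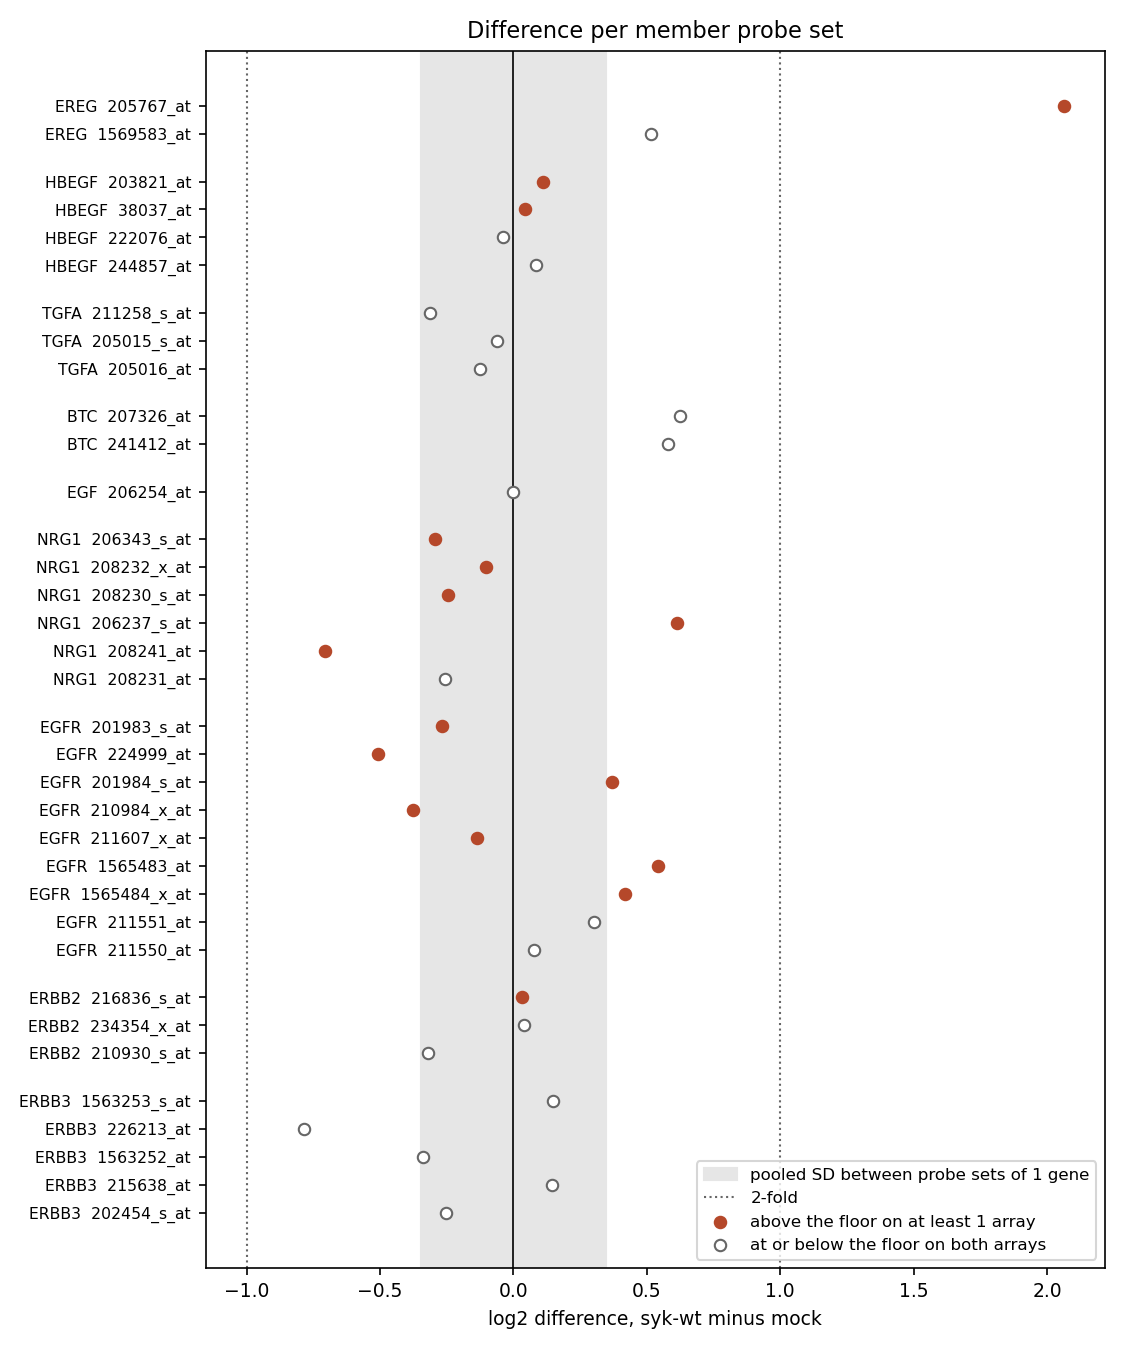
Log2 difference, syk-wt minus mock, of each member probe set, filled where at least 1 array was above the floor and open where both were at or below it. The grey band is plus and minus the pooled SD of 0.35 and the dotted lines mark 2-fold. EREG 205767_at (2.06) is the point beyond 2-fold, and the EGFR and NRG1 points fall on both sides of 0.

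**Figure D3:**
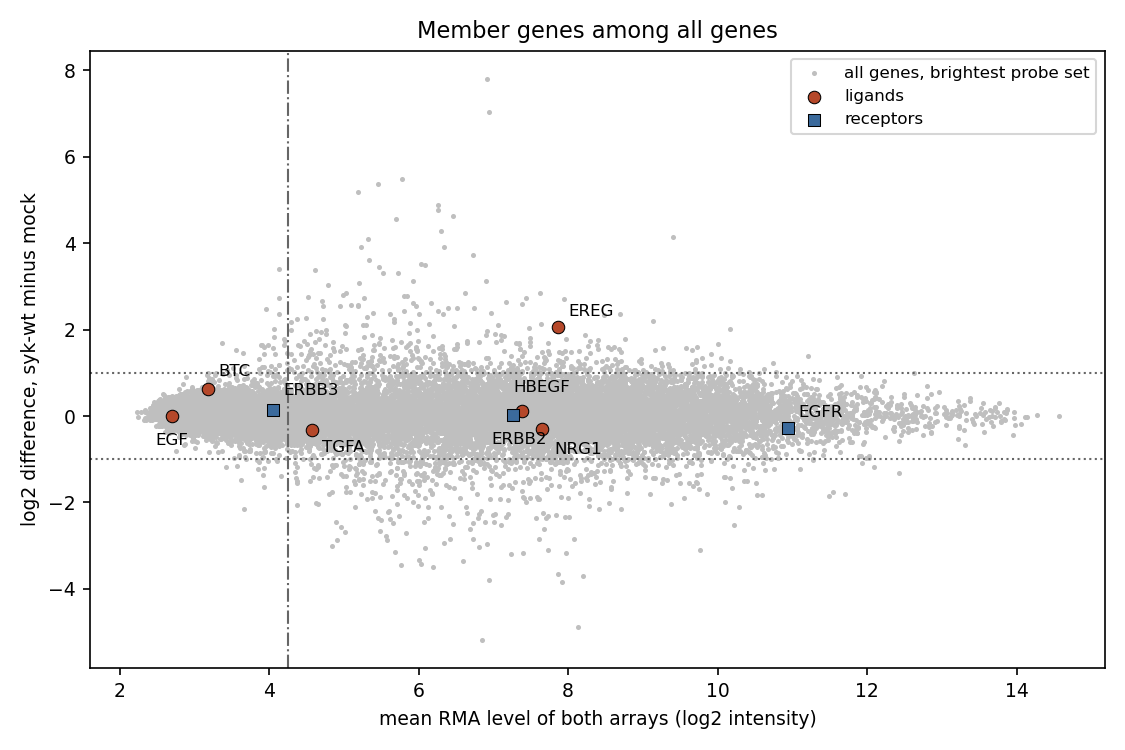
Log2 difference, syk-wt minus mock, against the mean RMA level (log2 intensity) of all 19775 genes by their brightest probe set (grey), with ligands as circles and receptors as squares. Dotted lines mark 2-fold and the dash-dotted line the filter at 4.25. EREG lies above 2-fold, while the other 8 genes lie between -0.31 and 0.63.

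Family members outside the group were mostly dim as well. NRG2, a second neuregulin, read 6.31 on syk-wt and 6.79 on mock by its brightest probe set, a difference of -0.47. The receptor ERBB4, which binds EREG, read 3.34 on syk-wt and 3.54 on mock by its brightest probe set, below the floor on both. NRG3 (2.94 on syk-wt and 2.99 on mock) and NRG4 (2.58 on syk-wt and 2.41 on mock) were below it too. EPGN, the ligand epigen, had no probe set named here.

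Genes that release the ligands stayed under 2-fold by their brightest probe sets. Of 9 genes for shedding (the ADAM proteases, their iRhom partners, a rhomboid protease and furin), 0 were at least 2-fold higher or lower, with a median of -0.05. Over all genes 3.61% were that much higher and 3.65% lower, so a count of 0 among 9 says little about this group. ADAM17, the main protease that frees EREG, TGFA and HBEGF, read 9.39 on syk-wt and 9.08 on mock, and its 3 probe sets differed by 0.29 to 0.31. RHBDF1 (iRhom1, which escorts ADAM17) differed by -0.51 and the intramembrane protease RHBDL2 by -0.69, with its 3 probe sets between -0.94 and -0.33.

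Downstream of the receptors, 19 of 26 listed adaptors and kinases had a probe set named, and all 19 passed the filter. Of these, 0 were at least 2-fold higher and 1 lower, beside 3.61% higher and 3.65% lower over all genes, so 1 of 19 is near the background. Of the 19, 13 were below 0, and the median was -0.21, against 0.01 over all genes. The share of all genes below 0 was not counted here. STAT3, a transcription factor that receptor tyrosine kinases can activate, read 10.1 on syk-wt and 11.4 on mock, 2.33-fold lower, and its 4 probe sets ranged from -1.22 to -0.17. With the mean over its probe sets STAT3 did not pass 2-fold. The exchange factor SOS2 differed by -0.68 and PIK3R1, the regulatory subunit of PI3K, by -0.66, and the SOS2 probe sets ran from -0.68 to 0.24.

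Genes listed for the restraint or turnover of ERBB receptors went both ways. Of 12 past the filter, 1 was at least 2-fold higher by its measured values and 0 lower, with a median of 0.03. Over all genes 3.61% were that much higher and 3.65% lower, so a count of 1 among 12 says little about this group. LRIG1, a membrane protein that promotes loss of EGFR, read 5.66 on syk-wt and 4.53 on mock by its brightest probe set. The mock value is below the floor, so LRIG1 was at least 1.86-fold higher, and its 4 probe sets ranged from -0.34 to 1.13. SOCS5, which also promotes EGFR loss, differed by 0.50 and LRIG2 by -0.49. Neither gene had probe sets of 1 sign, with SOCS5 from -0.14 to 0.50 and LRIG2 from -0.49 to 0.51. ERRFI1, an inhibitor of the EGFR kinase that ERBB signalling induces, was named after its value was seen and differed by -0.09, with 11.8 on syk-wt and 11.9 on mock.

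Transcripts known to follow ERK activity showed no common direction. Of 17 past the filter, 0 were at least 2-fold higher or lower, 8 were above 0 and 9 below, and the median was -0.02. The feedback inhibitors SPRY1 and SPRY4 differed by -0.92 and -0.73, and the ETS factor ETV1 by -0.83, with ETV1 probe sets from -0.83 to 0.33. At the other end, named after their values were seen, IER3, an early response gene, differed by 0.72 and the ERK phosphatase gene DUSP5 by 0.62. DUSP6, another ERK phosphatase gene chosen in the same way, differed by -0.59. The 2-fold shares over all genes, 3.61% higher and 3.65% lower, are the background for these lists.

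**Figure D4:**
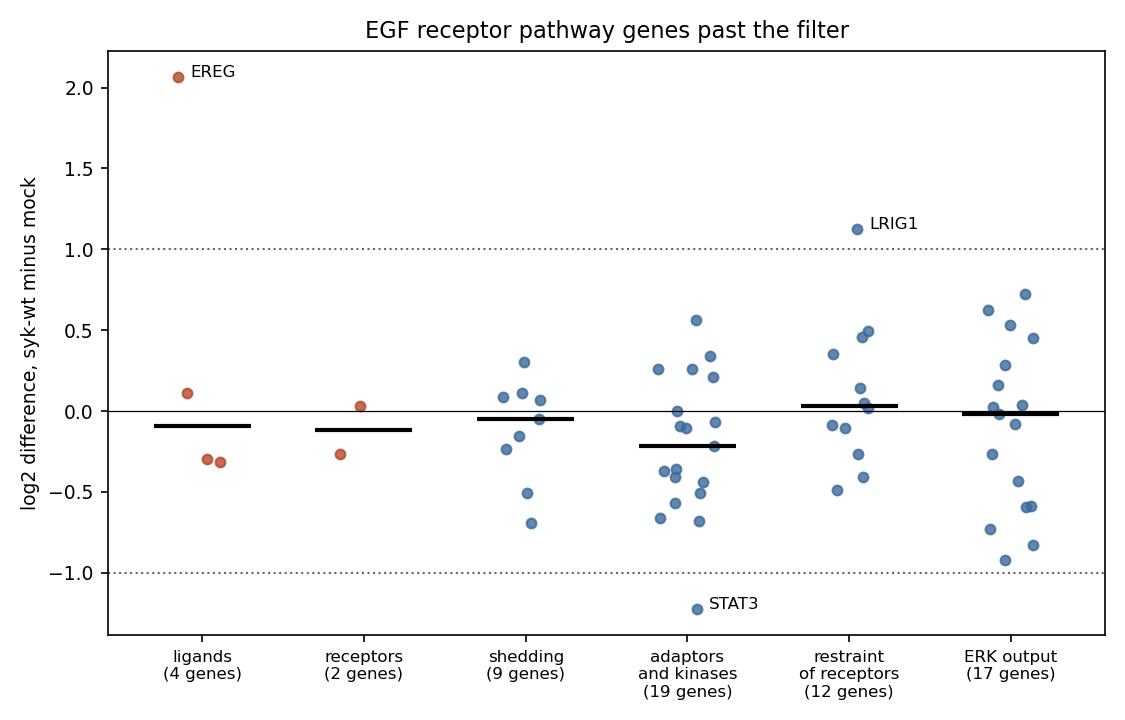
Log2 difference, syk-wt minus mock, of each gene past the filter in the member groups and in 4 lists of pathway genes, by its brightest probe set, with the list median as a bar and 2-fold as dotted lines. EREG (2.06), LRIG1 (1.13, with its mock value below the floor) and STAT3 (-1.22) lie beyond 2-fold.

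EREG, AREG and BTC lie next to each other on chromosome 4, with EPGN before EREG. Among the nearest protein-coding genes of this cluster in the RefSeq order, PARM1, which encodes a mucin-like membrane protein and follows BTC, was also higher on the syk-wt array. PARM1 read 6.47 on syk-wt and 3.90 on mock, and was at least 3.27-fold higher against the floor. Between EREG and PARM1 lie AREG, with no value here, and BTC, below the floor on both arrays. MTHFD2L, on the other side of EPGN, differed by -0.08, the ubiquitin ligase gene RCHY1 by 0.61 and THAP6 by -0.08, while the chemokine gene CXCL2 was below the floor on both arrays. Over the neighbours of all members, 28 genes passed the filter, of which 2 (PARM1 and ELOVL6, next to EGF) were at least 2-fold higher and 0 lower, beside 3.61% higher and 3.65% lower over all genes. At 28 genes these counts are near that background. ELOVL6, a fatty acid elongase, was at least 2.42-fold higher. Around ERBB2, the adjoining MIEN1 and PGAP3 differed by -0.02 and 0.01, close to the 0.03 of ERBB2 itself. Near EGFR (-0.27 by its brightest probe set), LANCL2 differed by 0.76, VOPP1 by -0.16 and POM121L12 by -0.14. Near NRG1 (-0.29 by its brightest probe set), MAK16 differed by 0.92 and WRN by 0.43. Near TGFA, which was below the floor on both arrays, PCYOX1 differed by -0.75 and SNRPG by 0.07. These were all under 2-fold.

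**Figure D5:**
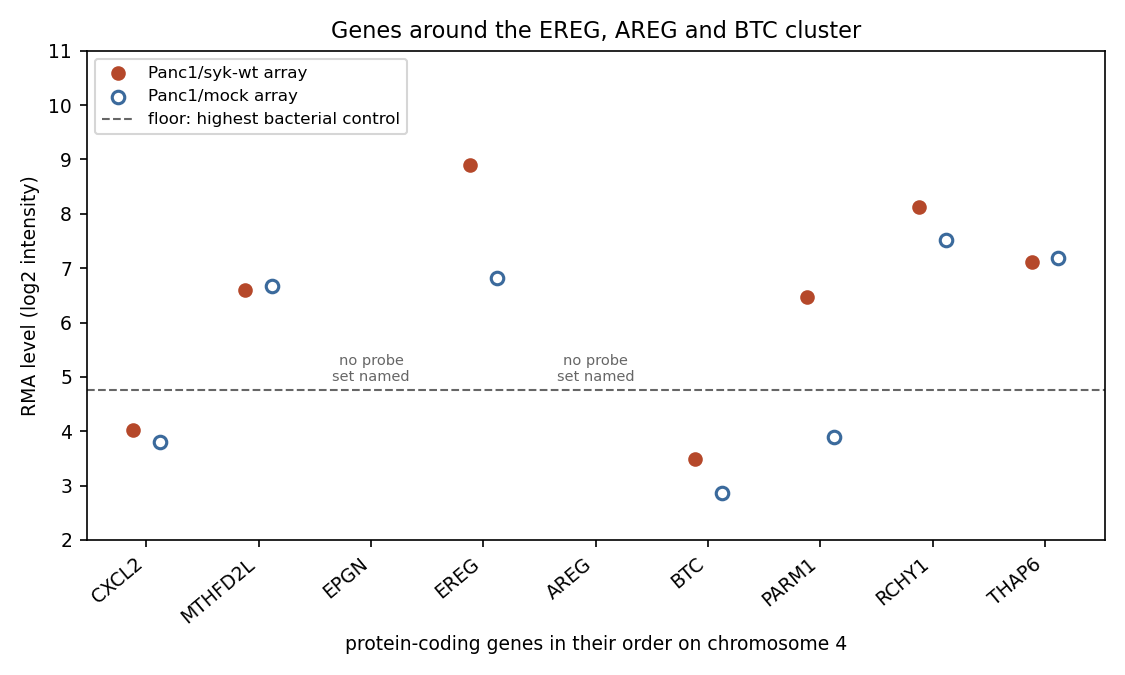
Level (RMA, log2 intensity) of protein-coding genes in their order around the ligand cluster of chromosome 4, by the brightest probe set, on the syk-wt array (filled) and the mock array (open), with the floor of 4.77 dashed. EREG and PARM1 are higher on syk-wt, MTHFD2L and THAP6 are near equal, and EPGN and AREG have no probe set named.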

How the data were processed

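RNA from 1 Panc1/syk-wt and 1 Panc1/mock population was read on 2 arrays. The deposited table holds log2 intensities for 54675 probe sets, made by the authors with RMA per the submitters' processing notes, with version and settings not given in the sources used here. RMA compresses differences of dim probe sets. Sequencing depth does not apply, and the number of arrays limits precision. All values were used as deposited. Of the probe sets, 41097 had 1 gene symbol in the platform annotation, 1801 had several and 11777 were not named here. The 35 member probe sets all matched a RefSeq gene ID (GRCh38.p14), and 8 of 10 genes had a promoter sequence there.

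The difference syk-wt minus mock was computed per probe set with Python 3.11.15 and pandas 2.3.3. A gene took its probe set with the highest mean. With 1 array per group no p-value or standard error was computed. Counts took a mean of at least 4.25 and a 2-fold difference. A fold against a value at or below the floor of 4.77 is given as at least the fold against the floor, and none where both values lie there. The next highest bacterial control reached 3.61.

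Named are the members, every gene of the short family list, up to 3 genes per pathway list by absolute difference, and the nearest 3 protein-coding genes on each side of a member. Members and lists were chosen with earlier results of these data known. The calculation was tested on simulated data. Alternatives were array centring, loess (span 0.2), other filters, other summaries of a gene's probe sets, the floor and a 1.5-fold threshold.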

Additional observations from a re-analysis of the deposited data

How the results depend on the processing

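EREG was higher on syk-wt under each alternative run for it. Its log2 difference was 2.06 with the brightest probe set and 1.29 with the mean or the median over both probe sets, since the dim probe set then counts equally, and 1 member gene stayed at least 2-fold higher in both. With 1.5-fold as the threshold, 2 member probe sets were higher and 1 was lower, in place of 1 and 0. The share of all probe sets past 1.5-fold was not counted. An absolute difference as large as the 0.61 of NRG1 206237_s_at occurred in 20.4% of those past the filter. These 1.5-fold counts thus say little about the members. The pathway counts moved with the summary: with the mean over probe sets 0 adaptors and kinases were at least 2-fold lower (STAT3 before) and 0 restraint genes higher (LRIG1 before), and with the floor 0 restraint genes were higher. Over all genes, 3.61% were at least 2-fold higher in the main setting and 2.32% with the mean over probe sets, and 3.65% and 2.22% were lower. EGFR ranged from -0.51 to 0.08, NRG1 from -0.71 to -0.16 and ERBB3 from -0.78 to 0.17, all under 2-fold. In all, 103 recomputed values stayed within the tolerance, which was the pooled SD of 0.35 for a log2 difference and 1.5 times for a count, and 13 moved further. A difference under 2-fold could change sign within it, as EGFR did (0.05 with the mean over probe sets). The median over probe sets above the floor on at least 1 array was an alternative chosen after seeing the data. No paired analysis was possible because each group has 1 array. For the same reason no array could be left out. Signal near the bacterial controls limits what can be said of 4 members, TGFA, BTC, EGF and ERBB3. For TGFA and ERBB3 that limit rests on the highest control, since the next highest reached 3.61, below their brightest probe sets.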

Other observations

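EGF probe set 206254_at had the same value, 2.71, on both arrays to the last digit deposited. It was 1 of 2189 among 54675 probe sets with equal values on both arrays, and its exact value was also held by other probe sets, 7 in all on syk-wt and 10 on mock.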
